A study of Rattus norvegicus with 12 samples.

Results

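A set of 10 circadian clock genes was followed through 4 pools of rat kidney RNA. The members were Bmal1 (also written Arntl), Npas2, Nr1d1, Nr1d2, Dbp, Per1, Per2, Per3, Bhlhe40 and Bhlhe41. They were chosen by name with earlier results of these data known, so counts of called members are descriptions. Clock, Cry1 and Cry2 were not among them and are given below with the other clock genes. Every probe set annotated to 1 of the 10 genes alone was taken. Of these 14 probe sets, 12 passed the filter on low signals. The whole series held 31042 probe sets, of which 18618 passed, and 14217 named genes. The lead probe set of each gene, the one with the highest mean signal, passed for all 10. The question asked of them was whether the activating and the repressing side of the clock differ between pools in opposite directions. A shift of clock phase can give that pattern, but the pools form no series of hours, so phase itself was not tested.

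The pools were PCK, a strain derived from Sprague Dawley rats that carries a mutation in Pkhd1, whose loss causes the recessive form of polycystic kidney disease; SD, the Sprague Dawley stock; FHH.Pkhd1, congenic rats of FHH background in which part of chromosome 9 comes from PCK; and FHH, the Fawn Hooded Hypertensive strain. Kidneys came from rats aged 30 days on the 5LOD diet, with 6 animals to a strain, and each strain gave 1 RNA pool that was read on 3 Affymetrix rat arrays. No drug or other treatment is named. The arrays of a pool are technical replicates, so every standard deviation, standard error (SE) and p-value here sets pools against the spread between arrays and says nothing of the spread between animals. The sources used here do not give the hour at which kidneys were taken, so hour of collection, handling of a pool and strain cannot be told apart.

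In the mammalian clock, BMAL1 pairs with CLOCK or its relative NPAS2 and switches on genes that carry E-box sequences. Among these are the Per and Cry repressors, the nuclear receptors REV-ERB alpha and beta (Nr1d1 and Nr1d2), the transcription factor Dbp, and the repressors DEC1 and DEC2 (Bhlhe40 and Bhlhe41). PER and CRY proteins shut off BMAL1 activity, and the REV-ERBs repress Bmal1 and Npas2 through ROR elements, so that Bmal1 and Npas2 messages are high when those of Dbp, Nr1d1 and Per3 are low. In the kidney the clock is known for daily rhythms in sodium, potassium and water handling.

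The promoters below show where letters of known clock elements occur, from 250 bases before to 50 bases after each gene's start, as RefSeq gives them on the GRCr8 assembly. They are given for Bmal1, Per2, Bhlhe40 and Bhlhe41, chosen among the genes with a match, which stand for the activator, a repressor with 2 kinds of clock element, and the 2 DEC genes whose levels differed between PCK and SD. Capitals mark the letters of 4 searched motifs on either strand: the E-box CACGTG, the E-prime box CACGTT, the D-box TTANGTAA bound by DBP and its relatives, and the ROR element core TAGGTCA.
Bmal1, chr1:176766078-176766377, plus strand: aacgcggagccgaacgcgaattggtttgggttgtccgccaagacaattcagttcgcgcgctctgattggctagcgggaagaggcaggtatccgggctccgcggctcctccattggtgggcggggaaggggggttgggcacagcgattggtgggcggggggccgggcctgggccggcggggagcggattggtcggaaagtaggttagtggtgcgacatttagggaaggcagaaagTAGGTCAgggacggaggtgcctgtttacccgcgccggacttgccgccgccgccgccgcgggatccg
Per2, chr9:99496944-99497243, minus strand: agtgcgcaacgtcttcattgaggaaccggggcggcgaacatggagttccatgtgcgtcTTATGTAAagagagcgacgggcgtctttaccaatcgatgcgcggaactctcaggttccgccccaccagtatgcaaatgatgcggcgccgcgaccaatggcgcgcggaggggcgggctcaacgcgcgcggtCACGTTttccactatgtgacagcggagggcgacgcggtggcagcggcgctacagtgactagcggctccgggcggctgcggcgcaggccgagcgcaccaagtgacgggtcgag
Bhlhe40, chr4:143174200-143174499, plus strand: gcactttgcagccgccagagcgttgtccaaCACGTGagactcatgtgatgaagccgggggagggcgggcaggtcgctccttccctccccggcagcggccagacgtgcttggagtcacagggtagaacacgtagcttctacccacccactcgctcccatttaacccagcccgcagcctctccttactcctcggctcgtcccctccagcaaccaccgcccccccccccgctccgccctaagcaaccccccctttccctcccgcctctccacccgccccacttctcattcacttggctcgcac
Bhlhe41, chr4:180569306-180569605, minus strand: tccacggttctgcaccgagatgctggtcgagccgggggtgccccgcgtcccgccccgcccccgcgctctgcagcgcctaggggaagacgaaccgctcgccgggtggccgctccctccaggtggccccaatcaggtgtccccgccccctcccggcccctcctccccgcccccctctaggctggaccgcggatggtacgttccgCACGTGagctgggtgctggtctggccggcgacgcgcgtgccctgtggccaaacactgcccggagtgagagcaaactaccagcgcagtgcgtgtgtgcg

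In these windows Bmal1 held a ROR core 16 bases before its start. Per2 held an E-prime box 62 bases and a D-box 192 bases before its start. Bhlhe40 held an E-box 220 bases before its start, and Bhlhe41 held one 48 bases before its start. The 10 genes had 11 promoter entries, 2 of them for Nr1d1. By entry, the E-box was in 3 of 11, with 1 Nr1d1 entry as the remaining one, against 6.42% of 33469 promoters of the same length. The E-prime box was in 2 of 11 (Per2 and the other Nr1d1 entry) against 4.83%, the D-box in 1 against 2.24% and the ROR core in 1 against 2.63%. Npas2, Per1, Per3, Dbp and Nr1d2, 5 of the 10 genes, held none of the 4 motifs in this window. A match of letters is a description and not a measured site. Npas2 and Per2 lie on chromosome 9, which also carries the congenic segment, and the segment's limits were not placed on GRCr8 here.

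Signals are on a log2 scale, and levels are compared between pools for 1 probe set at a time, never between genes. The detection level was 5.75, the 40th percentile of all values. A gene was called when its lead probe set had a limma p, adjusted over all 18618 probe sets, under 0.05 and a difference of at least 1.5-fold. Array medians were 6.41 to 6.46, and arrays correlated at 0.9973 to 0.9985 within pools and 0.9862 to 0.996 between pools. Precision is limited by the few arrays. Of the kidney markers, 9 of 9 measured were above the detection level. Calb1, a calcium-binding protein of the distal tubule, fell in PCK relative to SD (-0.68 ± 0.03, SE) and to FHH.Pkhd1 (-0.79 ± 0.03). No other kidney marker was called in these comparisons. Aqp2 was higher in PCK than in SD by 0.54, under 1.5-fold. The part of tubule cell types in the clock gene differences was not tested.

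Bmal1 and Npas2, the activators, were highest in PCK. Bmal1 read 6.83, 7.13 and 6.92 on the PCK arrays, against 6.21, 6.36 and 6.2 on the SD arrays. On the FHH.Pkhd1 arrays it read 5.91, 6.30 and 6.01, against 5.99 to 6.13 on the FHH arrays. Every PCK array lay above every other array for Bmal1, and the other 3 pools stood in the order SD, FHH.Pkhd1, FHH with neighbours overlapping.

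Npas2, the partner that can take the place of CLOCK, read 7.09, 7.17 and 7.19 in PCK, against 6.33, 6.19 and 6.49 in SD. FHH.Pkhd1 arrays read 6.23, 6.15 and 6.08, against 6.44, 6.07 and 6.24 in FHH. Here too the PCK arrays lay above all others, and the remaining 3 pools overlapped with their neighbours in the order SD, FHH, FHH.Pkhd1.

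The REV-ERB genes, which repress Bmal1 and Npas2, spread less. Nr1d1 read 7.37, 7.35 and 7.37 in PCK, against 7.51, 7.52 and 7.48 in SD. The FHH.Pkhd1 readings were 7.46, 7.34 and 7.45, against 7.84, 7.91 and 7.82 in FHH. FHH stood above the other pools for Nr1d1, and PCK overlapped with FHH.Pkhd1 at the low end.

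Nr1d2 read 10.17, 10.27 and 10.27 in PCK, against 10.49, 10.45 and 10.45 in SD. FHH.Pkhd1 arrays read 10.56 to 10.57, against 10.69 to 10.72 in FHH. The 4 pools did not overlap and ran upward from PCK through SD and FHH.Pkhd1 to FHH.

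Dbp, a bZIP factor whose message follows BMAL1 activity closely, read 9.62, 9.59 and 9.64 in PCK, against 10.28, 10.14 and 10.16 in SD. In FHH.Pkhd1 it read 10.54, 10.45 and 10.58, against 10.66, 10.57 and 10.51 in FHH. PCK was lowest and SD next, with no overlap, and the pools on the FHH background overlapped at the top.

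Of the Period genes, which encode the repressors that bind BMAL1 complexes, Per3 had the same order as Dbp. It read 8.26, 8.39 and 8.44 in PCK, against 9.0, 8.91 and 8.94 in SD. The FHH.Pkhd1 readings were 9.33, 9.32 and 9.40, against 9.43, 9.32 and 9.31 in FHH. The last 2 pools overlapped, and no others did.

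Per2 read 9.40, 9.44 and 9.40 in PCK, against 9.89, 9.97 and 9.84 in SD. In FHH.Pkhd1 it read 9.96, 9.94 and 9.89, against 9.95, 9.80 and 9.80 in FHH. PCK alone stood apart and was low, and the other 3 pools overlapped.

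Per1, which also responds to glucocorticoids, read 9.11, 9.06 and 9.06 in PCK, against 9.04, 9.09 and 9.03 in SD. FHH.Pkhd1 arrays read 9.07 to 9.08, against 9.31, 9.28 and 9.24 in FHH. FHH alone stood apart and was high.

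The DEC repressors compete with BMAL1 complexes for E-boxes. Bhlhe40 (DEC1) read 7.14, 7.22 and 7.25 in PCK, against 8.03, 7.85 and 7.90 in SD. In FHH.Pkhd1 it read 8.67, 8.56 and 8.68, against 8.57, 8.60 and 8.60 in FHH. It had the widest spread of pool means among the 10 genes, 1.44, with PCK lowest, SD next and the pools on the FHH background overlapping at the top.

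Bhlhe41 (DEC2) read 6.65, 6.71 and 6.81 in PCK, against 7.38, 7.51 and 7.38 in SD. The FHH.Pkhd1 readings were 6.28, 6.37 and 6.29, against 7.40, 6.99 and 7.08 in FHH. Its order differed from that of Bhlhe40: the strains with the PCK segment were the low ones, FHH.Pkhd1 below PCK, and SD and FHH overlapped above them.

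**Figure D1:**
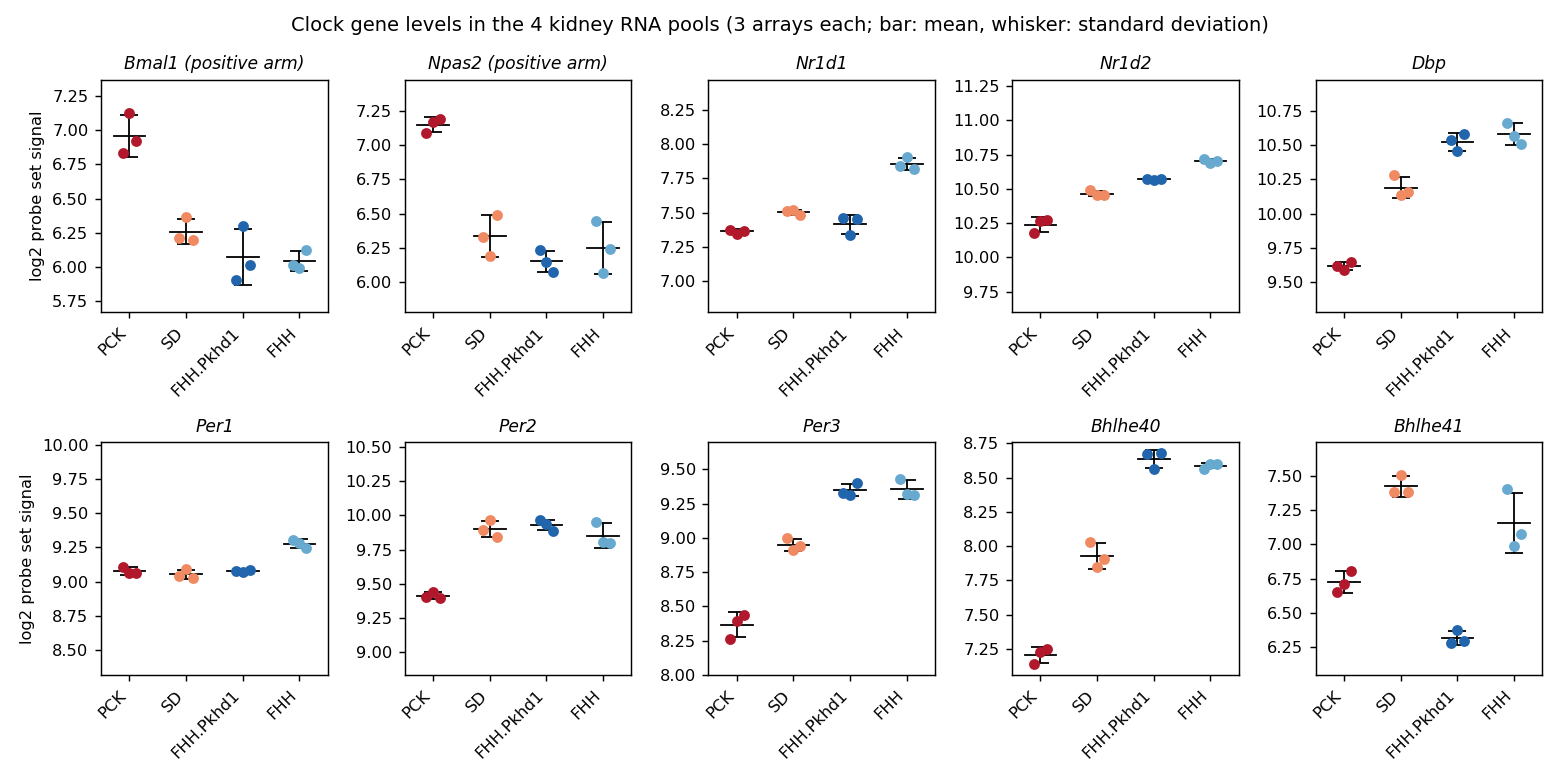
Log2 probe set signal (vertical axes, each spanning the same log2 range) of the lead probe set of each clock gene on every array of the PCK, SD, FHH.Pkhd1 and FHH pools, 1 panel per gene. Points are arrays, the horizontal bar is the mean and the whisker the standard deviation of 3 arrays of 1 pool. PCK is the highest pool for Bmal1 and Npas2 and the lowest for Dbp, Per2, Per3, Bhlhe40 and Nr1d2. For Nr1d1 its mean is also the lowest, but its arrays overlap those of FHH.Pkhd1.

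PCK was set against SD to compare the Pkhd1 mutant with its parent stock. Both activators rose in PCK: Npas2 by 0.81 ± 0.09 (log2 difference ± SE, 1.76-fold, limma adjusted p = 3.29e-05) and Bmal1 by 0.70 ± 0.10 (1.63-fold, limma adjusted p = 0.000175). Both DEC genes fell: Bhlhe40 at -0.73 ± 0.05 (1.65-fold, limma adjusted p = 7.28e-07) and Bhlhe41 at -0.70 ± 0.09 (1.63-fold, limma adjusted p = 7.84e-05). These 4 of 10 genes were called, where 3.2% of all tested probe sets were, 1.64% higher and 1.56% lower.

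Per3, at -0.58 ± 0.05, and Dbp, at -0.57 ± 0.05, lay just under the 1.5-fold limit. Both had small limma adjusted p-values, 4.86e-06 for Per3 and 5.9e-06 for Dbp. Leaving out single arrays moved them across that limit. Per3 passed at -0.60 without PCK replicate 2, -0.62 without PCK replicate 3, -0.60 without SD replicate 2 and -0.59 without SD replicate 3, and missed it at -0.53 without PCK replicate 1 and -0.56 without SD replicate 1. Dbp passed at -0.59 without PCK replicate 3, -0.60 without SD replicate 2 and -0.59 without SD replicate 3, and missed it at -0.57 without PCK replicate 1, -0.56 without PCK replicate 2 and -0.53 without SD replicate 1. The count of called genes ranged over 4 to 6.

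Per2 differed by -0.49 ± 0.05 (limma adjusted p = 1.26e-05), Nr1d2 by -0.23 ± 0.04 (limma adjusted p = 0.000485) and Nr1d1 by -0.14 ± 0.04 (limma adjusted p = 0.0231), all under 1.5-fold. Per1 differed by 0.02 ± 0.04 (limma adjusted p = 0.657), with a 95% interval of -0.05 to 0.10. At any fold, 9 of the 10 genes had an adjusted p under 0.05, where 32.8% of all tested probe sets had, and for the same 9 the arrays of PCK and SD did not overlap, where 45.2% of probe sets did not.

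FHH.Pkhd1 was set against FHH to compare rats with and without the PCK segment on 1 background. Bhlhe41 fell in FHH.Pkhd1 (-0.84 ± 0.09, 1.79-fold, limma adjusted p = 4.15e-05) and was the 1 gene of 10 called, where 1.72% of all tested probe sets were, 0.779% higher and 0.945% lower. Nr1d1 was lower by a smaller step (-0.44 ± 0.04, limma adjusted p = 1.82e-05), as were Per1 (-0.20 ± 0.04, limma adjusted p = 0.00168) and Nr1d2 (-0.13 ± 0.04, limma adjusted p = 0.0208). With Bhlhe41 these made 4 of 10 at any fold, against 21.2% of all, and 4 of 10 without overlap, against 37.5%.

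The activators did not pass the test on this background. Bmal1 differed by 0.03 (95% interval -0.19 to 0.24) and Npas2 by -0.10 (-0.30 to 0.10). Both intervals end below the differences these genes had between PCK and SD. Nor did 4 of the other genes that differed between PCK and SD: Bhlhe40 differed by 0.05 (-0.06 to 0.17), Dbp by -0.06 (-0.17 to 0.06), Per2 by 0.08 (-0.03 to 0.19) and Per3 by -0.00 (-0.12 to 0.11). On this background the activators read close to the detection level of 5.75. Pool means in FHH.Pkhd1 and FHH were 6.07 and 6.05 for Bmal1, and 6.15 and 6.25 for Npas2. The part of this low signal was not tested.

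Bhlhe41 was thus the 1 clock gene called in both comparisons of a pool with the PCK segment against a pool without it, which have no array in common. It was 1 of 22 probe sets lower in both, 7.59% of the 290 called lower in PCK than in SD and 12.5% of the 176 called lower in FHH.Pkhd1 than in FHH. The difference between its changes, 0.14 ± 0.13, did not pass the test (limma adjusted p = 0.436, 95% interval -0.13 to 0.41). The gene lies on chromosome 4 and not on the chromosome of the segment. PCK and SD are separate strains, so their comparison is not limited to the segment.

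Whether a gene's change in PCK differed from its change in FHH.Pkhd1 was tested directly, as the first difference less the second. The activators passed, Npas2 with 0.91 ± 0.13 (limma adjusted p = 0.00027) and Bmal1 with 0.67 ± 0.14 (limma adjusted p = 0.00324), and so did Bhlhe40 with -0.78 ± 0.07 (limma adjusted p = 1.08e-05). These 3 of 10 genes compare with 5.96% of all tested probe sets, 2.93% upward and 3.03% downward. In the same contrast 4 of 4 red cell markers and 3 of 4 adrenal markers were called lower and 4 of 5 urothelial markers higher. Of the kidney markers 1 of 9 was called lower (Calb1, at -0.81). The part of these cell types was not tested. At any fold 8 of 10 differed, against 30.1% of all, among them Per3 (-0.58), Per2 (-0.56) and Dbp (-0.52) downward and Nr1d1 (0.30) and Per1 (0.22) upward. The count was 5 without SD replicate 3 and 5 without FHH replicate 1.

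**Figure D2:**
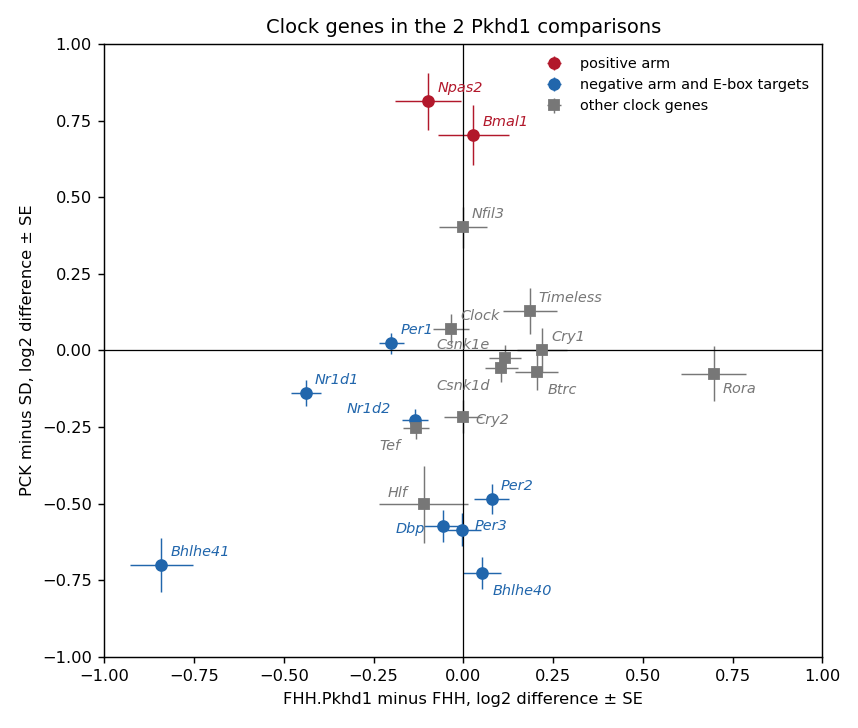
Log2 difference ± SE of FHH.Pkhd1 minus FHH (horizontal axis) and of PCK minus SD (vertical axis) for the 10 clock genes and 11 other clock genes; points are lead probe sets, with 3 arrays of 1 pool in each group. Bmal1 and Npas2 lie high near the middle, Bhlhe40, Per3, Dbp and Per2 low near the middle, and Bhlhe41 is low on both axes.

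PCK and FHH.Pkhd1 both carry the PCK segment on different backgrounds, and 5 of the 10 clock genes were called between them, where 6.4% of all tested probe sets were, 2.91% higher and 3.49% lower. Npas2 rose in PCK by 0.998 ± 0.092 (limma adjusted p = 3.14e-06) and Bmal1 by 0.89 ± 0.10 (limma adjusted p = 1.52e-05). Bhlhe40 fell 2.71-fold (-1.44 ± 0.05, limma adjusted p = 8.24e-10), Per3 1.98-fold (-0.99 ± 0.05, limma adjusted p = 2.49e-08) and Dbp 1.88-fold (-0.91 ± 0.05, limma adjusted p = 5.42e-08).

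Per2 (-0.52), Nr1d2 (-0.33) and Bhlhe41 (0.41) had an adjusted p under 0.05 at less than 1.5-fold, which made 8 of 10 at any fold against 51.9% of all, and 8 of 10 without overlap against 59% of all. Per1 at 0.00 (95% interval -0.08 to 0.08) and Nr1d1 at -0.05 (-0.14 to 0.04) did not pass. These 2 pools also differed in adrenal markers: 4 of 4 tested markers were called lower in PCK, and the summed signal of 8 measured markers was 8.37 to 8.51 in PCK and 10.34 to 10.46 in FHH.Pkhd1, with 3 of the 8 below the detection level on every array of both pools. Of the fat markers 3 of 6 were called lower (Fabp4 at -1.45, Ucp1 at -1.13 and Plin1 at -1.02). Lpl (-0.45) and Adipoq (-0.18) were also below 0, while Cidec (0.58) went the other way. Summed fat signals were 11.25 to 11.35 in PCK and 11.99 to 12.02 in FHH.Pkhd1. Of the smooth muscle markers 1 of 4 was called lower (Myh11, at -0.68). The part of adrenal, fat and muscle RNA in the clock gene differences was not tested, and fewer cells of a type and less RNA per cell cannot be told apart in these pools.

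SD and FHH differ in background without the PCK segment. Bhlhe40 fell in SD (-0.66 ± 0.05, 1.58-fold) and was the 1 gene called, where 3.41% of all tested probe sets were, 1.63% higher and 1.77% lower. Per3 (-0.41), Dbp (-0.39), Nr1d1 (-0.35), Nr1d2 (-0.24) and Per1 (-0.22) were lower and Bhlhe41 (0.27) higher at adjusted p under 0.05 and less than 1.5-fold. That made 7 of 10 at any fold against 35.1% of all. The arrays did not overlap for 7 of 10, against 48.3% of all. The activators did not pass, Bmal1 at 0.21 (95% interval -0.00 to 0.43) and Npas2 at 0.09 (-0.11 to 0.29), and neither did Per2 at 0.05 (-0.06 to 0.16).

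**Figure D3:**
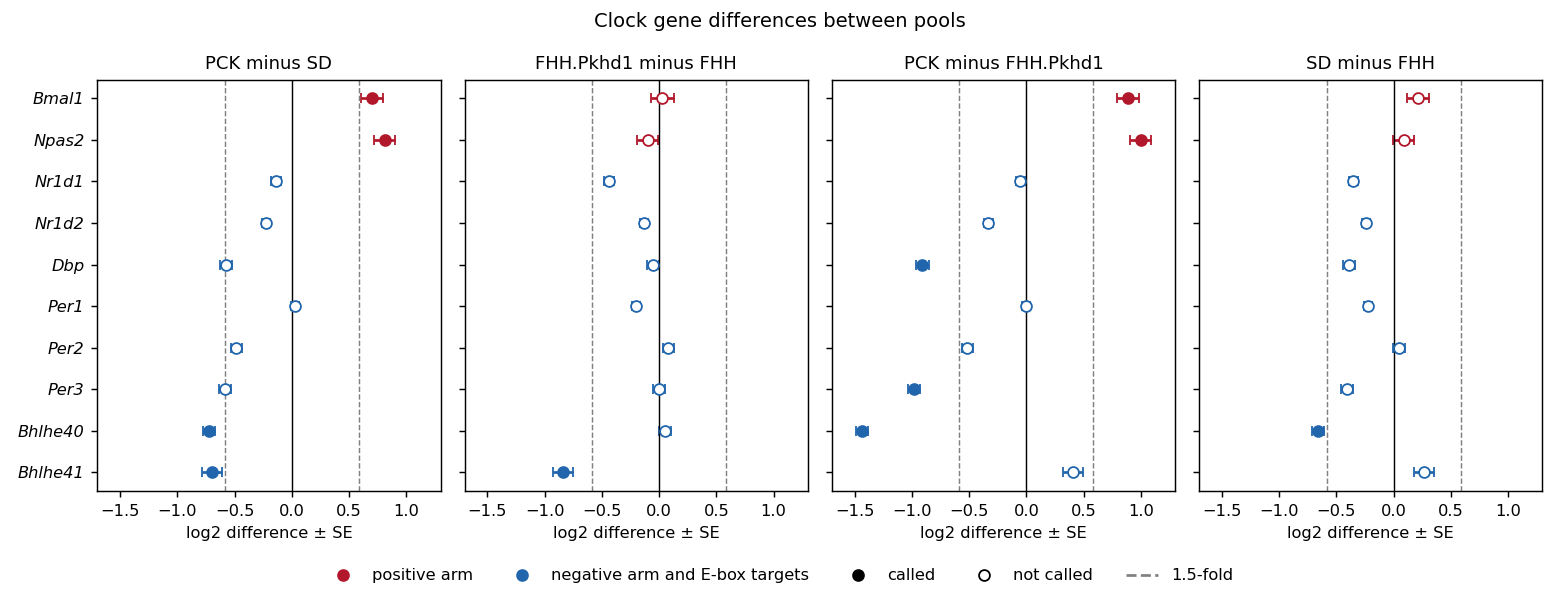
Log2 difference ± SE (horizontal axes) of each clock gene's lead probe set in 4 comparisons of pools, with 3 arrays of 1 pool in each group; filled points were called and dashed lines mark 1.5-fold. In PCK minus SD and in PCK minus FHH.Pkhd1 the activators lie to the right and most of the other genes to the left, while in FHH.Pkhd1 minus FHH the activators lie near 0.

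The 2 sides of the clock were set against each other by averaging the activators (Bmal1 and Npas2) and the other 8 genes on each array, after centring each gene on its mean over 12 arrays. In PCK the activators averaged 0.65 ± 0.09 and the other 8 genes -0.39 ± 0.03, while in SD the activators averaged -0.11 ± 0.04 and the others 0.03 ± 0.03 (log2, standard deviation, n = 3 arrays of 1 pool). In FHH.Pkhd1 the averages were -0.29 ± 0.10 and 0.08 ± 0.02, and in FHH they were -0.26 ± 0.10 and 0.28 ± 0.06. PCK was the 1 pool with activators above and repressors and targets below their means.

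The activator average less the average of the other 8 genes differed by 1.18 between PCK and SD, by 0.16 between FHH.Pkhd1 and FHH, by 1.42 between PCK and FHH.Pkhd1 and by 0.39 between SD and FHH. These are descriptions with no test, since the genes were chosen with results of these data known. In PCK minus SD the median difference of the 8 genes was -0.53, with 7 of 8 below 0, and that of all tested probe sets was -0.01. In FHH.Pkhd1 minus FHH the 8 genes had a median of -0.10, with 6 of 8 below 0, against 0.02 for all probe sets.

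The 8 genes did not share 1 size of difference. Between PCK and SD, Dbp, Per2, Per3 and the DEC genes lay between -0.73 and -0.49, the REV-ERB genes at -0.14 and -0.23, and Per1 at 0.02. Between FHH.Pkhd1 and FHH, the genes that were lower in FHH.Pkhd1 were Nr1d1, Per1, Nr1d2 (by its lead probe set alone) and Bhlhe41. There was no detectable difference in Bmal1, Npas2, Dbp, Per2, Per3 or Bhlhe40.

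**Figure D4:**
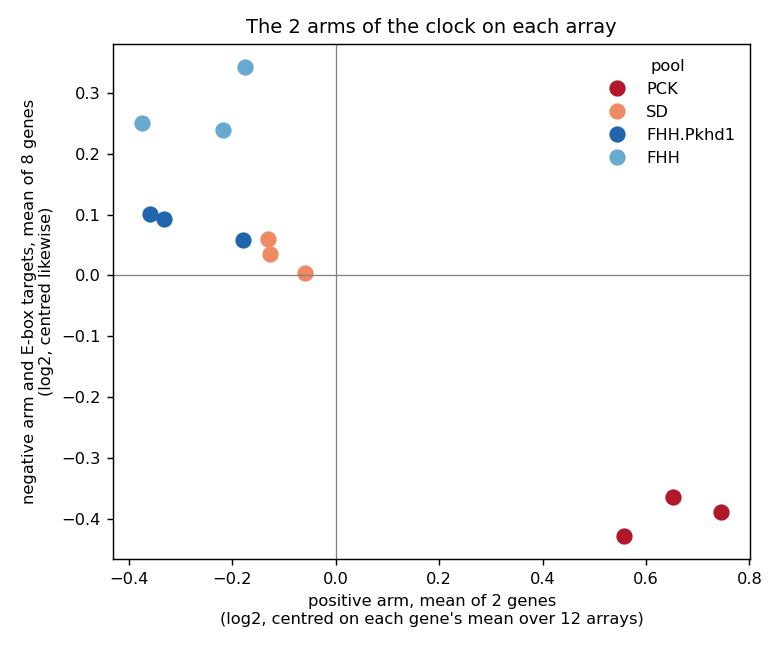
Mean log2 level of Bmal1 and Npas2 (horizontal axis) against that of the other 8 clock genes (vertical axis) on each of 12 arrays, each gene centred on its mean over all arrays. The 3 PCK arrays sit at the lower right, apart from the arrays of SD, FHH.Pkhd1 and FHH at the upper left.

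Where a gene had more than 1 probe set, these did not always give the same result. A second Per2 probe set, with pool means of 8.06 in PCK, 8.15 in SD, 8.07 in FHH.Pkhd1 and 8.07 in FHH, differed by -0.09 ± 0.04 between PCK and SD (limma adjusted p = 0.0992), so the low Per2 signal in PCK rests on 1 of 2 probe sets. A second Nr1d2 probe set differed by -0.32 ± 0.05 between PCK and SD (limma adjusted p = 0.000236), a slightly larger step than the lead one. Between FHH.Pkhd1 and FHH it differed by -0.09 ± 0.05 (limma adjusted p = 0.218). The lower Nr1d2 signal in FHH.Pkhd1 thus rests on 1 of 2 tested probe sets. In the difference between changes it gave -0.24 ± 0.07 (limma adjusted p = 0.018), where the lead one gave -0.09 ± 0.05 (limma adjusted p = 0.199). Another for Nr1d2, at pool means of 4.85 to 5.21, and a second for Per3, at 4.47 to 4.52, were below the detection level and were not tested. The other 7 genes, among them Bmal1, Npas2, Dbp and the DEC genes, each rest on 1 probe set.

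Of 16 other clock genes, 13 were measured and 11 tested. In PCK minus SD limma called 0 of them, with 4 of 11 at an unadjusted p under 0.05, where 42.4% of all tested probe sets were. That share of all probe sets was 33.8% in FHH.Pkhd1 minus FHH, 57.7% for PCK less FHH.Pkhd1, 44.9% for SD less FHH and 40.8% for the difference between changes, and the unadjusted counts of the lists below are to be read against it. Hlf, a relative of Dbp, differed by -0.50 ± 0.12 with further probe sets at -0.75 and -0.29. Nfil3, which represses at the D-boxes that DBP activates, differed by 0.40 ± 0.07 (limma adjusted p = 0.000731). Clock, the usual partner of BMAL1, differed by 0.07, with further probe sets at -0.12 and 0.02. Cry1 differed by 0.00, and Cry2 by -0.22 with its second probe set at -0.07. Tef, another relative of Dbp, differed by -0.25 with further probe sets at -0.36 and -0.34.

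Rora, an activator at ROR elements, rose in FHH.Pkhd1 relative to FHH (0.70 ± 0.09, limma adjusted p = 0.000189) and fell in PCK relative to FHH.Pkhd1 (-0.92 ± 0.09, limma adjusted p = 5.04e-06). Its second probe set gave -0.01 and -0.11 in the same 2 comparisons. Rora was the 1 gene of 11 called in each, and the 1 called in the test of the difference between changes (-0.77 ± 0.13, limma adjusted p = 0.000716). In SD minus FHH limma called 0 of 11, with 5 at an unadjusted p under 0.05 and Timeless (-0.35) and Btrc (-0.23) the farthest from 0.

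Genes known to follow the clock in kidney or liver were tested for 9 of 10. Pdk4, a kinase that holds back pyruvate oxidation, rose in PCK relative to SD (1.03 ± 0.05, limma adjusted p = 3.57e-08) and fell in SD relative to FHH (-0.77 ± 0.05, limma adjusted p = 4.76e-07), so SD was its low pool. Usp2, a ubiquitin protease with a strong daily rhythm, fell in PCK relative to FHH.Pkhd1 (-0.94 ± 0.07, limma adjusted p = 2.34e-07), with its second probe set at -0.49. No other gene of the list was called in those 3 comparisons. In FHH.Pkhd1 minus FHH limma called 0, with 6 at an unadjusted p under 0.05 and Lpin1 (0.30) and Usp2 (0.25) farthest from 0. Pdk4 was also the 1 call in the difference between changes (0.91 ± 0.08).

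Glucocorticoids can set peripheral clocks, and 10 of 12 genes known to respond to them were tested. Sult1a1, a sulfotransferase, rose in PCK relative to SD (0.70 ± 0.05), in PCK relative to FHH.Pkhd1 (1.22 ± 0.05) and in SD relative to FHH (0.66 ± 0.05). Cebpd, a transcription factor, rose in PCK relative to SD (0.62 ± 0.05), with its second probe set at 0.44. In FHH.Pkhd1 minus FHH limma called 0 of 10, with 9 at an unadjusted p under 0.05, Cebpd at 0.42 and Sgk1, a kinase of sodium transport, at 0.35. In the difference between changes limma called 0, with 5 at an unadjusted p under 0.05, Sult1a1 at 0.56 and Mt1 at 0.54. Of the classical targets, Tsc22d3 differed by 0.28 between PCK and SD (limma adjusted p = 0.000222) and by 0.25 between FHH.Pkhd1 and FHH (limma adjusted p = 0.00103), both under 1.5-fold. Fkbp5 likewise differed by 0.30 (limma adjusted p = 0.00354) and by 0.20 (limma adjusted p = 0.048). Klf9 was at -0.01 and -0.07, with its second probe set at -0.20 and 0.10. Errfi1 went the other way, at -0.35 (limma adjusted p = 8.91e-06) and -0.29 (limma adjusted p = 9.42e-05). In FHH.Pkhd1 minus FHH 6 of 10 genes of the list were above 0. In PCK minus SD 8 of 10 genes of the list were above 0, with a median of 0.23 against -0.01 for all tested probe sets. Their part in the clock gene differences was not tested.

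Body temperature also carries time of day to tissues, and 5 of 8 genes that respond to it were tested. In PCK minus SD limma called 0, with 3 at an unadjusted p under 0.05, Hspb1 at -0.18 and the cold-inducible Rbm3 at 0.17. In FHH.Pkhd1 minus FHH it called 0, with 1 at an unadjusted p under 0.05, Hsph1 at -0.13 and Rbm3 at 0.11. The second Hsph1 probe set gave 0.03 there. In PCK minus FHH.Pkhd1 it called 0, with 4 at an unadjusted p under 0.05, Hspb1 at -0.51 and Rbm3 at -0.30. In SD minus FHH it called 0, with 4 at an unadjusted p under 0.05, Cirbp at -0.46 and Rbm3 at -0.36. Further Cirbp probe sets gave -0.13 and -0.66 there. In the difference between changes it called 0, with 2 at an unadjusted p under 0.05, Cirbp at 0.25 and Hspb1 at -0.19. Further Cirbp probe sets gave 0.09 and 0.59. The counts for this list are of lead probe sets, and the further ones were not counted.

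Immediate early genes, which respond within minutes to handling of animals or tissue, were tested for 6 of 9. Jun rose in FHH.Pkhd1 relative to FHH (0.91 ± 0.09), fell in PCK relative to FHH.Pkhd1 (-0.63 ± 0.09), rose in SD relative to FHH (0.69 ± 0.09) and was called in the difference between changes (-1.32 ± 0.12). Its further probe sets gave 0.03 and 0.94 in FHH.Pkhd1 minus FHH and 0.13 and -0.84 in PCK minus FHH.Pkhd1. The one at 0.13 thus went against the lead probe set in PCK minus FHH.Pkhd1. In the other comparisons and in the difference between changes the Jun probe sets had the same sign. The step of 0.03 was much smaller than that of the lead probe set. In PCK minus SD limma called 0 of 6, with 3 at an unadjusted p under 0.05, Jun at -0.41 and Ier3 at 0.26.

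Markers of other cells and controls added to the RNA differed between pools beside the clock genes. Between PCK and SD, 3 of 4 red cell markers were called lower in PCK, with a summed signal of 12.84 to 12.87 in PCK against 13.60 to 13.61 in SD, and 0 of 4 below the detection level on every array. In the same comparison limma called 0 of 4 adrenal markers, with 0 at an unadjusted p under 0.05, and 0 of 5 urothelial markers, with 4 at an unadjusted p under 0.05 and summed signals of 8.89 to 8.96 in PCK against 8.48 to 8.59 in SD. It called 1 of 6 fat markers higher (Lpl, at 1.27), while the other 5 tested were below 0, from -0.40 for Ucp1 to -0.02 for Plin1. The summed signal of the fat list was 11.25 to 11.35 in PCK against 10.97 to 11.01 in SD. Of the smooth muscle markers it called 0 of 4, with 1 at an unadjusted p under 0.05, and of the leukocyte markers 0 of 3, with 2 at an unadjusted p under 0.05.

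Between FHH.Pkhd1 and FHH, 3 of 4 tested adrenal markers were called higher, with summed signals of 10.34 to 10.46 in FHH.Pkhd1 against 9.51 to 9.58 in FHH. In the same comparison 1 of 6 fat markers was called lower (Ucp1, at -0.59) and 1 of 4 red cell markers higher (Slc4a1, at 0.65). The other fat markers had no single direction: Cidec (-0.46) and Adipoq (-0.28) were below 0, and Plin1 (0.41), Fabp4 (0.26) and Lpl (0.24) above it. Between SD and FHH, 3 of 4 red cell markers were called higher in SD, and 4 of 6 fat markers, 3 of 4 adrenal markers and 2 of 5 urothelial markers (Upk1b at -1.10, Upk3a at -0.76) lower. Poly-A spike-in controls averaged 10.77 in PCK, 10.43 in SD, 9.97 in FHH.Pkhd1 and 11.07 in FHH. The 3' less 5' signal of beta-actin averaged 1.33 in PCK, 1.10 in SD, 1.20 in FHH.Pkhd1 and 1.39 in FHH (two-sided exact permutation p = 0.1 for both measures in each of the 4 comparisons, the smallest that 3 arrays against 3 allow). The part of these cell types and of RNA handling in the clock gene differences was not tested.

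The genes whose levels were most like those of Bmal1 over the 12 arrays of 4 pools were, by Pearson's r, the quinone reductase Nqo1 (0.991), Enc1 (0.971), the transcription factor Myc (0.968), the lipid transporter Abca8a (0.966) and carboxypeptidase E, Cpe (0.965). Nqo1 averaged 8.97 in PCK, 8.37 in SD, 8.23 in FHH.Pkhd1 and 8.15 in FHH. Of 1414 probe sets whose pool means spanned at least 1.5-fold, 8 had an r over 0.95 with Bmal1. Those most like Dbp were the mitochondrial Fundc2 (0.995), Bckdhb, a subunit of the branched-chain ketoacid dehydrogenase (0.993), Tbc1d16 (0.991), the helicase Rtel1 (0.989) and the pappalysin Pappa2 (0.987), and 53 had an r over 0.95. Among the clock genes, left out of that ranking, r with Dbp was 0.993 for Per3, 0.985 for Bhlhe40, 0.960 for Nr1d2 and 0.875 for Per2. It was 0.62 for Nr1d1, 0.50 for Per1 and 0.02 for Bhlhe41, and below 0 for Bmal1 (-0.955) and Npas2 (-0.906). All these values describe 4 pools whose arrays share their RNA, so they come down to the order and spacing of 4 means.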

How the data were processed

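Kidney RNA of 4 rat strains was measured on 12 arrays, 3 for each strain's pool, and grouped by the strain label. Per the submitters' processing notes, the authors used RMA and Partek 6.2. The values they deposited are signals per probe set on a log2 scale, and these were analysed as they stand. The sources used here do not say whether the 12 arrays were normalized as 1 set. Of 31099 probe sets, 57 controls were left out of the tests. Gene symbols came from the platform annotation, updated through RefSeq GRCr8 records (20758 of 20826 single-symbol probe sets matched).

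Probe sets whose mean over 12 arrays reached the 40th percentile of all values were tested with limma 3.58.1 in R 4.3.3, with 1 mean per strain, eBayes (prior degrees of freedom 3.90, residual 8) and Benjamini-Hochberg adjustment over 18618 probe sets. A gene was counted by the single-symbol probe set with the highest mean. Of each list, every called member up to 4 per comparison was named, or the 2 largest differences where none was called, with a few further clock genes and glucocorticoid targets added by name after their values were seen. Likeness to Bmal1 and Dbp was Pearson's r, ranked among tested probe sets of genes outside the 10 members. The procedure was tested on simulated data. The alternatives covered the filter, probe set choice, fold limit, variance model, arrays in the fit, normalization, replicate number and single arrays. The members and lists were chosen with earlier results of these data known.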

Additional observations from a re-analysis of the deposited data

Results flagged for a closer look

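For 3 of the clock genes the difference between PCK and SD was itself different from that between FHH.Pkhd1 and FHH, by the limma test of the difference between the 2. For Bmal1 the first less the second was 0.6735 on the log2 scale, with pool means of 6.96 in PCK and 6.26 in SD, and of 6.07 in FHH.Pkhd1 and 6.05 in FHH. For Npas2 it was 0.9106, with pool means of 7.15 in PCK and 6.34 in SD, and of 6.15 in FHH.Pkhd1 and 6.25 in FHH. For Bhlhe40 it was -0.7769, with pool means of 7.20 in PCK and 7.93 in SD, and of 8.64 in FHH.Pkhd1 and 8.59 in FHH. In each case PCK is the pool that stands apart from SD, and FHH.Pkhd1 overlaps FHH. Each rests on 1 RNA pool per strain. Groups of 3 arrays are too small for a check of single outlying arrays.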

How the results depend on the processing

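The numbers of clock genes called (4 for PCK against SD, 1 for FHH.Pkhd1 against FHH, 5 for PCK against FHH.Pkhd1, 1 for SD against FHH and 3 for the difference between changes) came out the same with a filter on the highest pool mean, no filter, 1 probe set per gene, the mean of a gene's probe sets, eBayes with trend and robust, quantile normalization and, for the first 4, the arrays of the compared strains alone. They depend on the fold limit: with no fold limit they were 9, 4, 8, 7 and 8, and with a 2-fold limit 0, 0, 1, 0 and 0, by the construction of the limit. Leaving out single arrays gave 4 to 6 in PCK minus SD and 3 to 5 in the difference between changes, 5 without SD replicate 3 and 5 without FHH replicate 1, and left the other counts as they were. The activator average less that of the other 8 genes ranged over 1.14 to 1.22, 0.09 to 0.20, 1.38 to 1.49 and 0.35 to 0.43 in the 4 comparisons when single arrays were left out. Without Bhlhe40 and Bhlhe41 it was 1.09, 0.09, 1.41 and 0.41, and 0.997 rather than 1.03 for the difference between changes. Only the value for PCK against SD, 1.18 with all 8 genes, changed by more than the pooled standard deviation between arrays. As a ratio, the value for FHH.Pkhd1 against FHH, 0.16 with all 8 genes, changed by over 1.5 times. With the replicate number as a block the counts were 4, 1, 5, 1 and 3. The deviations of same-numbered arrays correlated at -0.25 to 0.35, and 7 of 24 were closest to their own number, so the numbers were not taken as a pairing. Signs turned only where nothing was called: Nr1d1 in PCK minus FHH.Pkhd1 was 0.0173 after quantile normalization. Per1 in PCK minus FHH.Pkhd1 ranged over -0.0150 (without PCK replicate 1) to 0.00949, and was -0.00282 without FHH.Pkhd1 replicate 2. Per3 in FHH.Pkhd1 minus FHH ranged over -0.0303 to 0.0344, with 0.0344 without FHH replicate 1, 0.00434 without FHH.Pkhd1 replicate 1 and 0.0115 without FHH.Pkhd1 replicate 2. Npas2 in SD minus FHH ranged over -0.00440 (without FHH replicate 2) to 0.185, and Bmal1 in FHH.Pkhd1 minus FHH over -0.0846 (without FHH.Pkhd1 replicate 2) to 0.111. The causes of these turns were not tested. With 1 pool per strain, no setting measures the spread between animals.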
